A study of Macaca mulatta with 304 samples.

Results

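The B cell transcription regulators described here are PAX5, EBF1, POU2AF1, SPIB, BCL11A, TCF4, IRF8 and CIITA, 8 nuclear proteins that set or serve the gene programme of B lymphocytes. Their rows were taken by symbol from a table of RNA counts in whole blood of irradiated rhesus macaques (Macaca mulatta), across every day, dose and control. Of the 21070 rows of that table, 7 bear one of these symbols, and all 7 were among the 13751 genes with enough counts to be tested. SPIB had no row of its own. Its transcripts lie inside the RefSeq gene LOC719262, which also holds the exons of the neighbouring DNA polymerase gene POLD1, so that row is given as a joint SPIB-POLD1 value and is not counted among the 7 members.

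Blood came from 28 healthy adult animals, 3 to 5 years old, 14 females and 14 males, which received a single fraction of radiation to the upper thorax. The lower dose group (LD, 9.8 Gy) held 12 animals with 151 irradiated samples, and the higher dose group (HD, 10.7 Gy) held 16 animals with 129 irradiated samples. There was no sham-irradiated group. The controls were 24 samples drawn 2 days before irradiation (Day -2), 12 from animals of each dose group, so that 24 of the 28 animals had a control of their own. Irradiated samples were drawn on 15 scheduled days from Day 3 to Day 270, and 8 further samples came from unscheduled draws between Day 71 and Day 172. All animals received tramadol or buprenorphine from Day 4 to Day 25, and those with fast breathing received dexamethasone, a glucocorticoid, so later samples can differ in drug as well as in radiation. Fewer animals were left with time, and at Day 270 the 6 animals with a sample were 5 LD animals and 1 HD animal.

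Counts per sample ranged from 2840219 to 23638161, with a median of 8227563. The libraries are numbered in their names. The numbers fall in a lower range (series A below) and a higher range (series B), while the other 150 libraries all carry the number 0 (series C), and the meaning of these numbers is not given in the sources used here. Of the controls 20 were of series A and 4 of series C. From Day 3 to Day 15 each animal with a control had its samples in the series of that control, whereas from Day 30 on every sample was of series B or C. A difference between these samples and the controls of series A therefore cannot be told apart from a difference between series, and the steps between later days are given beside it. No library repeated another, and 3 libraries stood apart from the rest (an HD sample of Day 40, an HD sample of Day 120 and an LD sample of Day 150), with median correlations with the others under those of all other libraries. Leaving out these 3 libraries, an alternative chosen after the data were seen, changed 1 count of members below, that of Day 150, where IRF8 was then called as well.

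B cells are specified by a small circuit of transcription factors. EBF1 and PAX5 commit a precursor to the B lineage and hold the identity of the mature cell, where they activate the genes of the antigen receptor complex such as CD79A and shut off genes of other lineages. POU2AF1 (OCA-B) is a coactivator that binds the octamer factors at immunoglobulin and other B cell promoters, SPIB is an ETS factor that works with IRF proteins, BCL11A is a zinc finger repressor needed for early B cells, and TCF4 (E2-2) is an E protein of B cells that also directs plasmacytoid dendritic cells. IRF8 acts in B cells, monocytes and dendritic cells, and CIITA is the coactivator that switches on the MHC class II genes in all cells that present antigen. Mature B cells and their precursors are among the most radiosensitive cells of the blood and marrow.

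The stretch just before EBF1 is shown because EBF1 fell furthest of the members on Day 3. It is 250 bases long, ends at the base before the annotated gene start in the Mmul_10 assembly, and is written 5′ to 3′ along the strand of the gene. No annotated exon of EBF1 overlaps it, and exons of other genes were not checked. In this stretch, chr6:156519712-156519961 on the minus strand, capitals mark an octamer (ATGCAAAT, the site of the POU factors that POU2AF1 binds) 78 bases before the start and GC boxes (GGGCGG) at 96 and 66 bases.
EBF1: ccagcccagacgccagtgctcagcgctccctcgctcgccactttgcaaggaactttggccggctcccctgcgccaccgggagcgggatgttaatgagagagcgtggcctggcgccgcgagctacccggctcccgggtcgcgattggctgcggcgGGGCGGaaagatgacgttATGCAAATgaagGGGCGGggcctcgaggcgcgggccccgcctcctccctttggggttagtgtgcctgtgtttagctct

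Searched on both strands, the octamer was in 1.552% and the GC box in 43.67% of 20747 such stretches across the genome. The palindromic EBF1 site, the ETS-IRF composite element and TGACGTCA (the cAMP response element) were in 0.8724%, 2.116% and 1.475% of the stretches and not in that of EBF1. The G and C content was 67.2% before EBF1, against a median of 57.2%. The annotated start is not necessarily the start used in blood.

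Before irradiation the members were all measurable. Per kilobase of annotated exon, the median control level in CPM (the counts-per-million scale, by scaled library size) was highest for CIITA (37.9) and POU2AF1 (35.6), followed by PAX5 (22.8), IRF8 (17.2), BCL11A (9.51), TCF4 (7.39) and EBF1 (6.88). CIITA was above POU2AF1 in 16 of 24 animals and TCF4 above EBF1 in 13 of 24, so these neighbours were not separated, while each of the other neighbours kept its order in 19 to 23 animals. The levels differed widely between animals. PAX5 ranged from 35.5 to 627 CPM in the 24 controls with a median of 225.2, whereas IRF8 ranged from 32.7 to 73.6 with a median of 57.5. No member had 0 counts in any library, and the lowest counts were 3 for BCL11A, 5 for EBF1 and 16 for PAX5.

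Across the 24 control animals the levels of the members varied together. Pearson's r ranged from 0.54 to 0.96 over the 28 pairs of the 7 members and the joint row, and within the 20 controls of series A from 0.69 to 0.97. PAX5 and BCL11A were most alike (r = 0.96, rho = 0.92, permutation p = 1e-05 for each, the smallest that 100000 resamples can give, adjusted over the 28 pairs to 1.56e-05 and 2.8e-05), and r was 0.94 without the 2 animals farthest from the median of PAX5. Without the 2 farthest animals the 7 pairs with IRF8 had an r of 0.21 to 0.59 and the 21 pairs without it 0.43 to 0.94, so these ranges overlapped. For IRF8 with POU2AF1, r went from 0.58 to 0.23 without those animals, on which it rests, while rho over all 24 was 0.56 (permutation p = 0.00551, adjusted p = 0.00643) and r within series A was 0.82. Such pairs share library, depth and the share of B cells in the blood.

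At Day 3 the level of PAX5 was 24.5 to 213.5 CPM with a median of 73.03, against the control median of 225.2, and all 24 animals were below their own control. EBF1 ranged from 6.98 to 50.2 CPM with a median of 19.3, against 61.6 in the controls (12.2 to 114.4), again below the control in 24 of 24 animals. The values of both genes still overlapped those of the controls as a group, since the animals differed before irradiation, and the fall shows within each animal. The log2 fold change against the own control was -1.57 for EBF1 (SE 0.12, adjusted p = 1.24e-11) and -1.35 for PAX5 (SE 0.14, adjusted p = 4.08e-09). In whole blood, fewer B cells and less of these RNAs in each B cell cannot be told apart.

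The other B lineage members fell on the same day. BCL11A went from a control median of 42.1 CPM (10.7 to 129.9) to 18.8 (9.18 to 38.3), with a log2 fold change of -1.06 (SE 0.11). TCF4 went from 91.6 (36.5 to 140.0) to 44.99 (24.6 to 83.9), with -0.97 (SE 0.09). The coactivator POU2AF1 went from 44.05 (16.3 to 93.8) to 23.4 (6.54 to 44.1), with -0.87 (SE 0.09). Their ranges overlapped those of the controls, but BCL11A and TCF4 were lower in 23 and POU2AF1 in 22 of 24 animals. Thus 5 of 7 members were called lower at Day 3, with an adjusted p no higher than 0.05 and a change of 1.5-fold or more, while 4.62% of all genes tested were called lower. IRF8 and CIITA passed the limit for p but not for the fold. IRF8 stood at 45.1 CPM (33.7 to 63.1), a log2 fold change of -0.28 (SE 0.06), and CIITA at 162 (97.04 to 308) against 241 in the controls (86.01 to 696), with -0.56 (SE 0.08).

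Over the following weeks the members returned at different speeds. At Day 6 all but IRF8 were called lower (6 of 7, against 5.48% of all genes), CIITA at its lowest early median of 122.2 CPM with a log2 fold change of -0.92 (SE 0.12). At Day 9 there were 5 (against 2.43%), all but TCF4 and IRF8. PAX5 was then the only member called, at Day 15 (-0.64, SE 0.10, against 0.894% of all genes) and at Day 21 (-0.68, SE 0.10, against 2.73%). At Day 30 no member was called by edgeR (1.33% of all genes were lower), 3 had an unadjusted p under 0.05, and neither DESeq2 nor limma called any. Over the 24 animals with a control, PAX5 stood at a median of 187 CPM (44.7 to 443) on that day with a log2 fold change of -0.26 (SE 0.09), whereas EBF1 and POU2AF1 had medians of 70.9 and 50.7 CPM and log2 fold changes of 0.11 (SE 0.10) and 0.19 (SE 0.11). All Day 30 samples were of series C, and in the 4 animals whose control was also of series C the log2 fold changes were -0.37 for PAX5, 0.07 for EBF1 and -0.43 for POU2AF1, with none of the members called by edgeR.

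**Figure D1:**
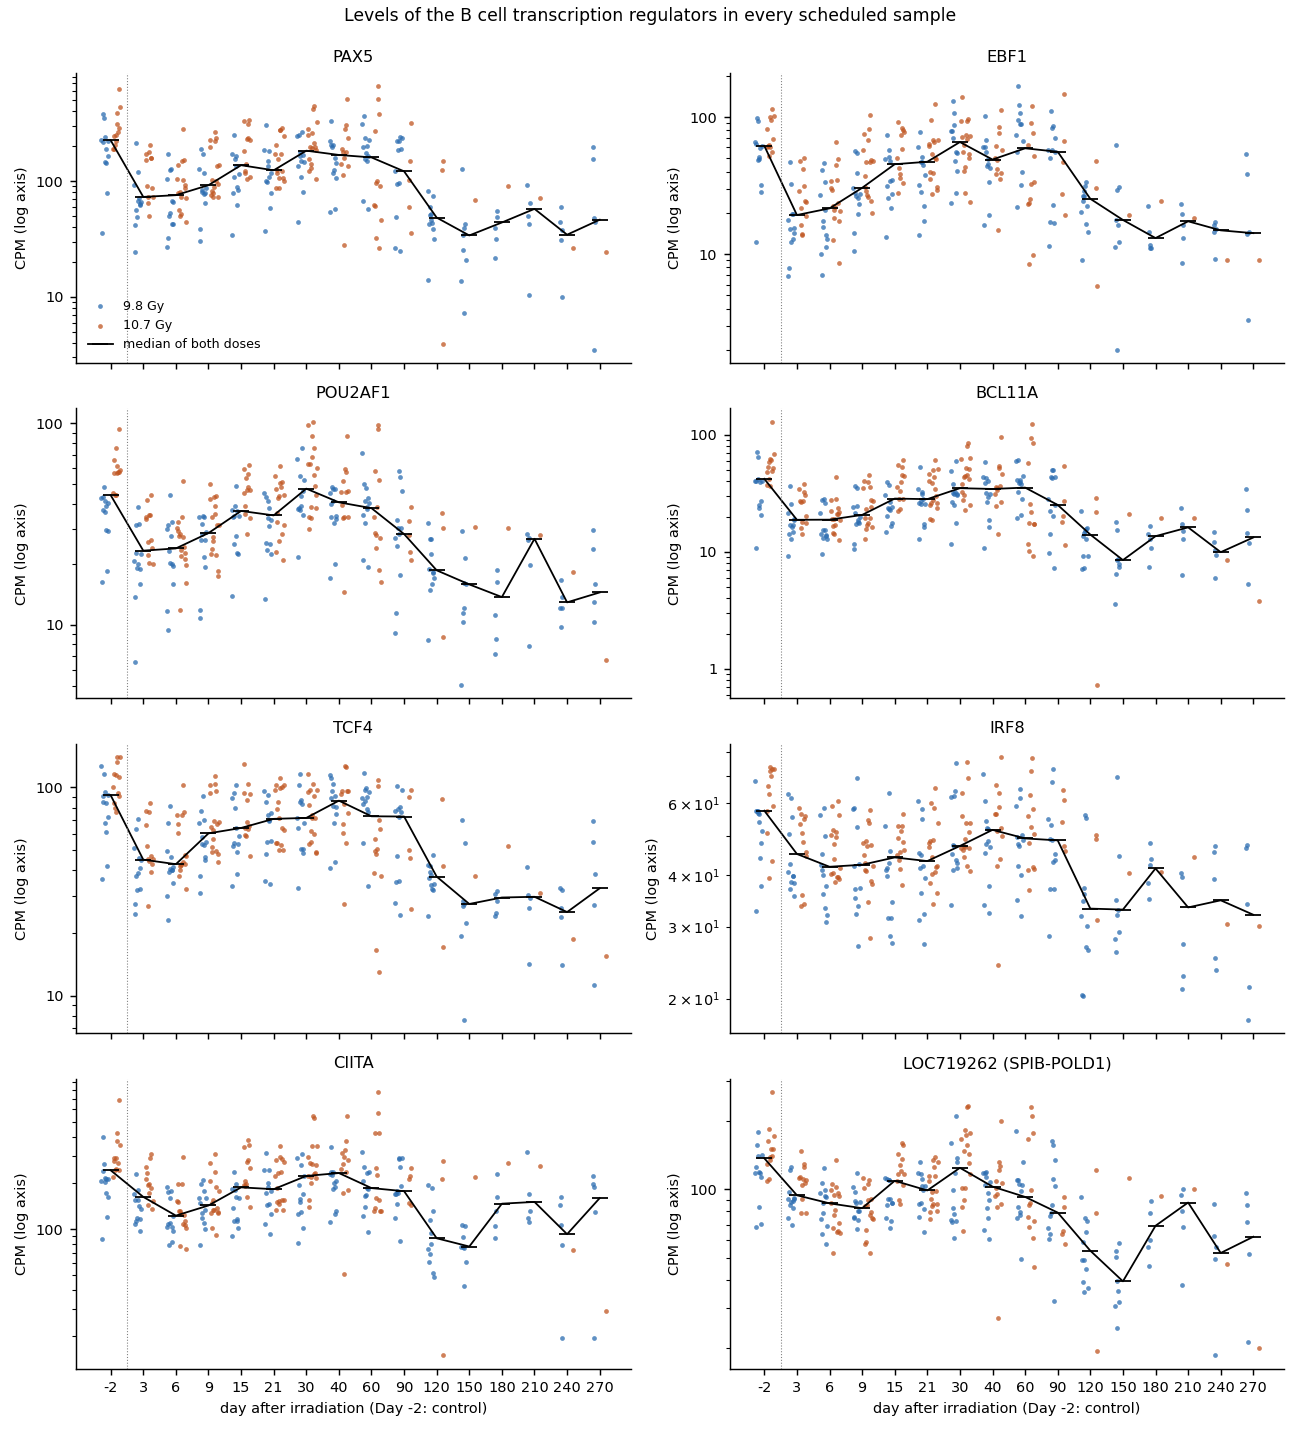
Level in CPM of the 7 members and of the joint row LOC719262 in every scheduled sample (log axis), by day, with a point for each sample coloured by dose and a line through the median of both doses. Over all samples, the PAX5 median of 225.2 before irradiation drops to 73.03 by Day 3, is back at 183 by Day 30, and then goes down to 48.4 (Day 120) and 34.4 (Day 240), while the IRF8 median stays between 32.05 and 57.5 throughout.

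**Figure D2:**
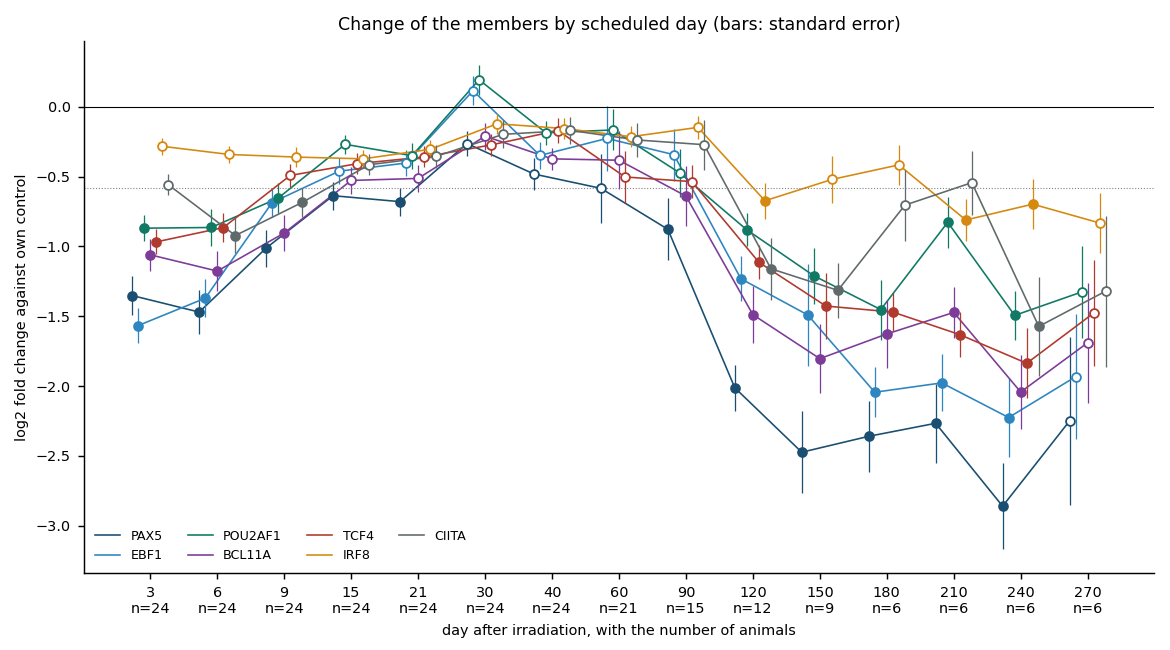
Log2 fold change of each member against the animals' own controls by scheduled day, with the standard error as bars and the number of animals under each day, where filled points are called and the dotted line marks a fold of 1.5. EBF1 starts lowest at -1.57 and crosses 0 on Day 30, and PAX5 is lowest from Day 40 on, reaching -2.86 on Day 240.

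Some members were already higher on Day 9 than on Day 3. From Day 3 to Day 9 the level of EBF1 rose in 24 of 24 animals, from a median of 19.3 to 38.3 CPM in the animals with a control, with a log2 fold change of 0.88 (SE 0.08, adjusted p = 6.7e-10), and it was the only member called higher (7.54% of all genes were called higher). TCF4, which was also higher in 24 of 24 animals, had a log2 fold change of 0.47 (SE 0.06, adjusted p = 4.45e-08), under the fold limit. PAX5 was higher in 20 of 24 animals with 0.34 (SE 0.07), and IRF8 was higher in 9 of 24 with -0.08 (SE 0.05). All these samples lie in the library series of the animal's control. With TMM scaling 37.7% of the genes called in this step were higher, against 56.5% in the main fit, and EBF1 was called under both.

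All samples of an animal with a control, unscheduled draws included, were also added up in the study's windows of early (Day 3 to 21), medium (after Day 21 to Day 90) and late (after Day 90) time points. Of the 14 animals of the late window 12 had a Day 120 sample, and B1504 and B2504 entered through 1 unscheduled draw each, on Day 102 and Day 94. In the early window 5 of 7 members were called lower (1.75% of all genes): PAX5, EBF1, BCL11A, TCF4 and POU2AF1. PAX5 went from 250.5 ± 122.9 CPM (SD, n = 24) in the controls to 125.2 ± 62.6, with a log2 fold change of -1.01 (SE 0.11, adjusted p = 3.31e-08), and was lower in 24 of 24 animals. EBF1 went from 65.9 ± 25.1 to 37.1 ± 16.8 CPM (SD, n = 24), with -0.86 (SE 0.09, adjusted p = 9.98e-09), also in 24 of 24. POU2AF1, at -0.59 (SE 0.08), lay just past the fold limit and was not called with TMM scaling or DESeq2. CIITA at -0.57 (SE 0.08) and IRF8 at -0.34 (SE 0.05) were the members not called, lower in 22 and 21 of 24 animals.

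No difference between the sexes or the doses was detected in this early change. The early log2 change of PAX5 was -0.92 ± 0.55 in 12 females and -1.06 ± 0.65 in 12 males (SD), and -0.96 ± 0.68 in 12 LD and -1.02 ± 0.52 in 12 HD animals. For each member the sexes overlapped, and the modelled difference of the changes (female minus male) lay between -0.06 and 0.19 on the log2 scale with standard errors of 0.11 to 0.23. By edgeR no member and no gene at all was called for either difference, at an unadjusted p under 0.05 and the same fold limit 20 genes differed by sex and 66 by dose, and 0 members differed by sex and 1 by dose at an unadjusted p under 0.05. DESeq2 called no member for either difference. For the dose, the members' differences in change (HD minus LD) ran from -0.34 for POU2AF1 (SE 0.15) to 0.09 for EBF1 (SE 0.18).

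In the medium window no member passed both limits, although 1.27% of all genes were called lower. DESeq2 called none either, 6 members had an unadjusted p under 0.05, and 5 had an adjusted p of at most 0.05 with a fold under 1.5. PAX5 had a mean of 180.1 ± 87.2 CPM (SD, n = 24), lower than the control in 21 animals, with a log2 fold change of -0.48 (SE 0.09). EBF1 stood at 57.5 ± 24.001 CPM, lower in 16 of 24, with -0.23 (SE 0.10), and POU2AF1 at 43.1 ± 13.7 CPM, lower in 13 of 24, with -0.14 (SE 0.08). Day by day no member was called at Day 40 (2.85% of all genes lower) or Day 60 (1.92%), with 5 and 3 of the 7 at an unadjusted p under 0.05 and none called by DESeq2 or limma on either day. At Day 90, with 15 animals, PAX5 (-0.88, SE 0.22) and BCL11A (-0.64, SE 0.21) were called lower (2 members, against 3.19% of all genes). From Day 30 to Day 90 POU2AF1 was the only member to fall past both limits (1 of 7, against 3.06% of all genes). It went from a median of 43.9 to 28.3 CPM and was lower in 16 of 17 animals, with a log2 fold change of -0.85 (SE 0.15, adjusted p = 6.97e-04).

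A difference between the doses was called for EBF1 from Day 30 to Day 60. Over the counts summed from these days, the change of EBF1 in HD animals was lower than that in LD animals by a log2 difference of -0.67 (SE 0.16, adjusted p = 0.00962), and no other member was called (0.560% of all genes were lower by this test). TCF4 had -0.55 (SE 0.13, adjusted p = 0.00881) and POU2AF1 -0.48 (SE 0.14, adjusted p = 0.0351), with folds under 1.5, and the differences of all 7 members were below 0. Among these days the difference between the medians was widest on Day 60. On that day the EBF1 change from the own control was 0.44 at the median of 12 LD animals (-0.19 to 1.32) and -1.38 at the median of 9 HD animals (-2.79 to 0.08). PAX5 had -0.02 (-1.18 to 0.92) and -1.63 (-3.42 to 0.41) in the same animals, and BCL11A 0.04 (-0.98 to 0.84) and -1.59 (-2.47 to 0.63), so that the doses overlapped through the few HD animals near 0. IRF8 had -0.18 in LD and -0.48 in HD animals, the smallest HD change of the members, although PAX5, BCL11A, TCF4 and POU2AF1 lay nearer to 0 in the LD animals.

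**Figure D3:**
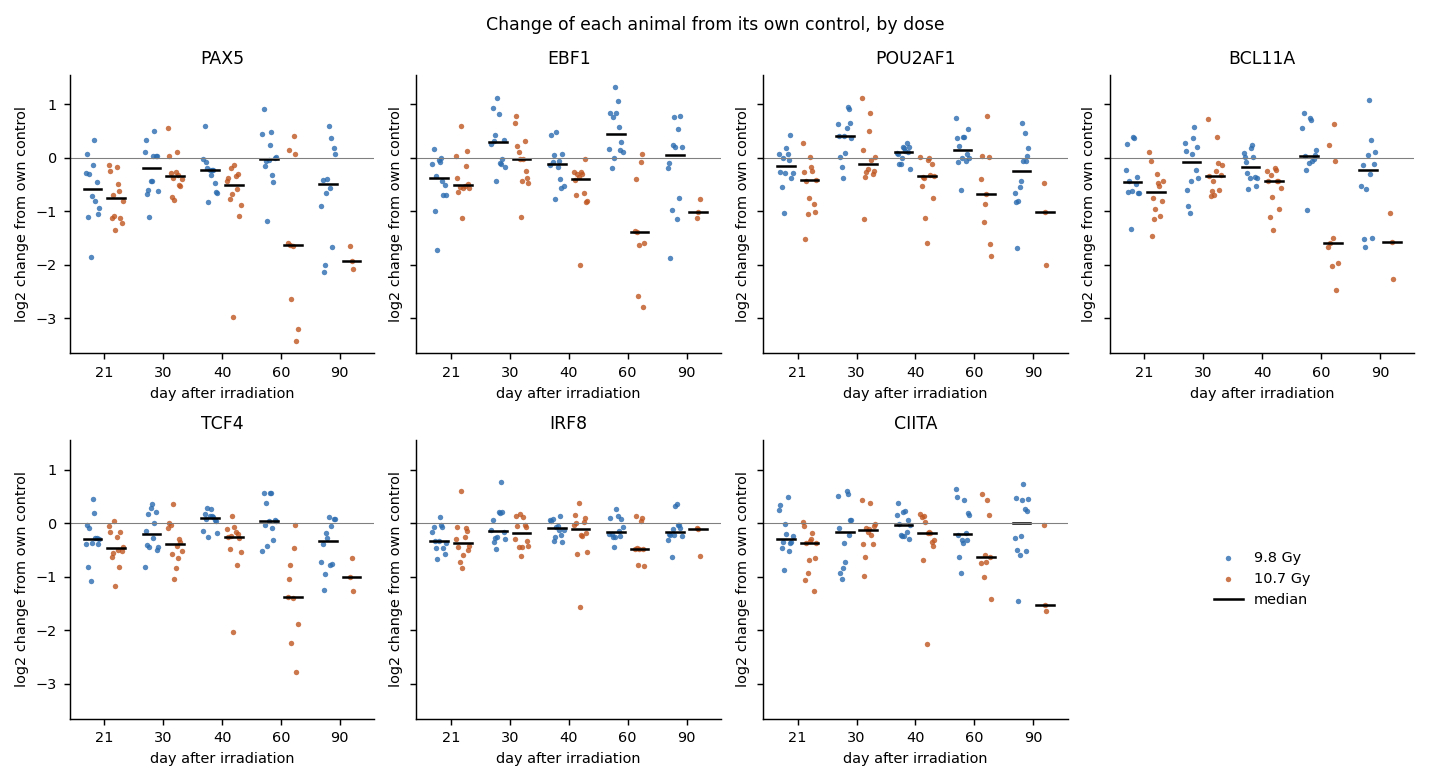
Log2 change of each animal from its own control (log2 CPM with a prior count of 2) on Day 21, 30, 40, 60 and 90, by dose, with a bar at the median and a panel for each member. On Day 60 the HD medians of PAX5, EBF1, BCL11A and TCF4 lie between -1.63 and -1.38 while the LD medians lie between -0.02 and 0.44.

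Without Day 60, an alternative chosen after the data were seen, the EBF1 difference was -0.34 (adjusted p = 0.54) and no member was called. All LD controls were of series A and 4 HD controls were of series C. With only the 20 animals whose control was of series A, also chosen after the data were seen, EBF1 (-0.77, adjusted p = 0.0113) and TCF4 (-0.68, adjusted p = 0.00259) were both called.

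Lower levels were measured after Day 90. In the late window each of the 7 members was called lower, against 18.5% of all genes. PAX5 fell in 14 of 14 animals, from 244 ± 151 CPM (SD, n = 14) in their controls to 54.7 ± 25.4, with a log2 fold change of -2.06 (SE 0.17, adjusted p = 1.37e-07). BCL11A followed with -1.62 (SE 0.17), from 45.5 ± 29.8 to 13.5 ± 4.71 CPM, and EBF1 with -1.42 (SE 0.17), from 62.5 ± 29.3 to 23.3 ± 11.7 CPM, each lower in 14 of 14 animals. TCF4 had -1.33 (SE 0.12), POU2AF1 -1.02 (SE 0.11) and CIITA -0.98 (SE 0.18), lower in 14, 13 and 12 of 14 animals. IRF8 changed least, from 54.6 ± 11.5 to 36.4 ± 7.44 CPM, lower in 14 of 14 animals with -0.60 (SE 0.09), and with TMM scaling (-0.51), DESeq2 (-0.49) or no filter (-0.51) it stayed under the fold limit.

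Of the genes called in the late window 42.96% were higher, against 54.6% with TMM scaling and 57.7% with DESeq2, whose size factors moved the median change of all genes by 0.119. The changes of all 7 members were larger than that shift. Since every late sample was of series B or C and 20 of the 24 controls were of series A, these falls cannot be told apart from the change of library series.

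The step from Day 90 to Day 120 lies wholly within library series and shows the same members. PAX5 went from a median of 153 CPM (26.5 to 317) at Day 90 to 48.4 (3.88 to 150.4) at Day 120 and was lower in 13 of 14 animals, with a log2 fold change of -1.44 (SE 0.25, adjusted p = 0.00293). EBF1 went from 56.4 (11.4 to 147) to 25.3 (5.83 to 47.7), lower in 12 of 14, with -1.16 (SE 0.21, adjusted p = 0.00293). BCL11A (-1.17, SE 0.24), CIITA (-1.04, SE 0.26) and TCF4 (-0.73, SE 0.15) completed the 5 members called lower, against 7.72% of all genes. IRF8 was lower in 14 of 14 animals with -0.53 (SE 0.10, adjusted p = 0.00346), under the fold limit, and POU2AF1 in 11 of 14 with -0.53 (SE 0.18), after its fall from Day 30 to Day 90. Higher genes made up 50.2% of those called in this step, 71.1% with TMM scaling and 70.0% with DESeq2.

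From Day 120 on, the low levels persisted in the animals that remained. Members called lower against the own control were 7 at Day 120 (12 animals, 19.1% of all genes), 6 at Day 150 (9 animals, 19.5%), 5 at Day 180 (9.86%), 6 at Day 210 (16.9%) and 7 at Day 240 (3.51%), the last 3 days with 6 animals each. IRF8 was not called at Day 120 with TMM scaling, DESeq2 or no filter, and at Day 240 limma, which lost CIITA and IRF8, called 5 members, and leaving out single animals left 5 or 6. CIITA was not called at Day 180 (-0.71, SE 0.26) or Day 210 (-0.54, SE 0.23), and IRF8 not at Day 150 (-0.52, SE 0.17) or Day 180 (-0.42, SE 0.14). At Day 240 the 6 samples held 9.996 to 59.3 CPM of PAX5 with a median of 34.4, while the controls of these animals held 144 to 385. EBF1 held 9.02 to 17.2 CPM against 32.2 to 98.4. The samples and the own controls did not overlap for PAX5, EBF1, BCL11A and TCF4 at Day 180, 210 and 240, or for POU2AF1 at Day 210 and 240. The share of all genes without such overlap was not computed, so this does not set the members apart from other genes. From Day 120 to Day 210 EBF1 was the only member that changed past both limits (1 of 7, against 9.24% of all genes), lower in 6 of 6 animals with a log2 fold change of -0.77 (SE 0.21, adjusted p = 0.031).

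At Day 270 the levels of all members but IRF8 split by animal. In animals B1003 and B1004, both LD males, PAX5 stood at 198.5 and 156.5 CPM, against 216 and 379 before irradiation and 44.4 and 59.3 at Day 240. In the 4 females it held 48.5, 44.3, 24.3 (the HD animal) and 3.51 CPM, against controls of 144 to 385. The Day 270 library of B1003 was of series B and the others of series C. EBF1 showed the same split in level, with 53.4 and 38.2 CPM in the males and 3.31 to 14.5 in the females. Set against the own controls, males and females overlapped for EBF1. The male B1004 held 38.2 CPM against 98.4 before irradiation, and the female B1505 held 14.5 against 32.2. The levels of IRF8 did not split, with 46.5 and 34.1 CPM in the males and 17.7 to 47.3 in the females. All 7 log2 fold changes were below 0, from -2.25 for PAX5 (SE 0.60) to -0.83 for IRF8 (SE 0.21), but edgeR called none of the members, with adjusted p of 0.0751 for 5 of them. The test called 1 gene in all (0.00727% of genes were lower), although 3540 genes had an unadjusted p under 0.05 and the same fold, as did all 7 members. DESeq2 called 7 members on that day, with 7.11% of all genes lower, and limma called none. Without animal B1003 edgeR called 6 members, with 651 of 13751 genes lower.

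**Figure D4:**
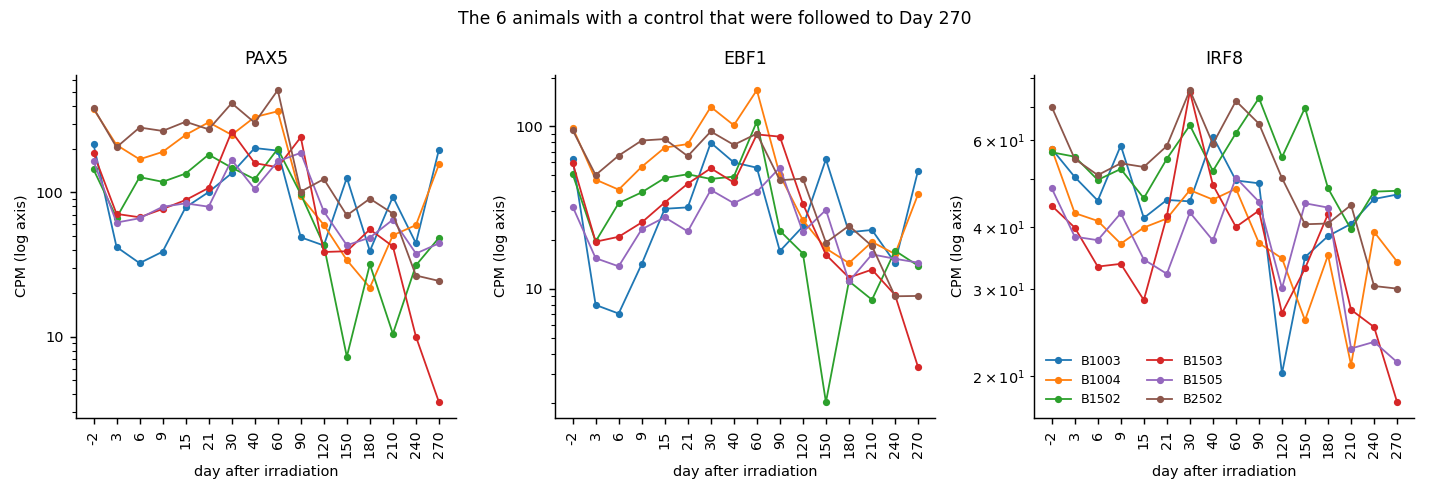
Level in CPM of PAX5, EBF1 and IRF8 (log axes) in the 6 animals with a control that were followed to Day 270, with a line for each animal. From Day 120 to Day 240 most PAX5 and EBF1 values lie well under the Day -2 values of the same animal, and at Day 270 B1003 and B1004 rise to 198.5 and 156.5 CPM of PAX5 while B1503 is at 3.51.

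The members were then set against other B cell genes. Each sample was scaled to the summed counts of 10 B cell identity genes (among them MS4A1, CD79A, CD79B, CD22, BLK, BANK1, FCRLA, CR2 and TNFRSF13C) in place of all genes. This sum is RNA of those genes and not a count of B cells. On this scale no change of PAX5 was detected. It held a median of 17.6 counts for each 100 counts of those genes in the controls, 16.6 in the early, 18.7 in the medium and 15.8 in the late window, and its log2 fold changes of -0.07 (SE 0.08), 0.07 (SE 0.08) and -0.17 (SE 0.13) had adjusted p of 0.401, 0.399 and 0.224. In the late window BCL11A had 0.27 (SE 0.13, adjusted p = 0.0579) and EBF1 0.47 (SE 0.13, adjusted p = 0.00186, under the fold limit). IRF8 fell by less than the B cell genes. Its median went from 4.09 to 6.71 counts for each 100 in the early window, higher in 24 of 24 animals with a log2 fold change of 0.60 (SE 0.08, adjusted p = 2.89e-08), and from 4.49 to 10.9 in the late window, higher in 14 of 14 with 1.28 (SE 0.13, adjusted p = 5.43e-09).

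CIITA (0.90, SE 0.17) and POU2AF1 (0.87, SE 0.14) were higher relative to the B cell genes in the late window as well, in 13 and 14 of 14 animals. So 1 member was called higher early, none in the medium window (6 of 7 members had an adjusted p of at most 0.05 there with folds under 1.5) and 3 late. On this scale nearly every gene rises, since the B cell genes fell, with 93.6%, 42.6% and 98.4% of all genes called higher and median changes of 0.92, 0.53 and 1.75. The members' values are therefore to be read as distances from the B cell genes, and no member rose as far as the median gene. The genes CD79A and CD79B are known targets of PAX5 and EBF1, and without them the early IRF8 change of 0.53 lay under the fold limit.

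**Figure D5:**
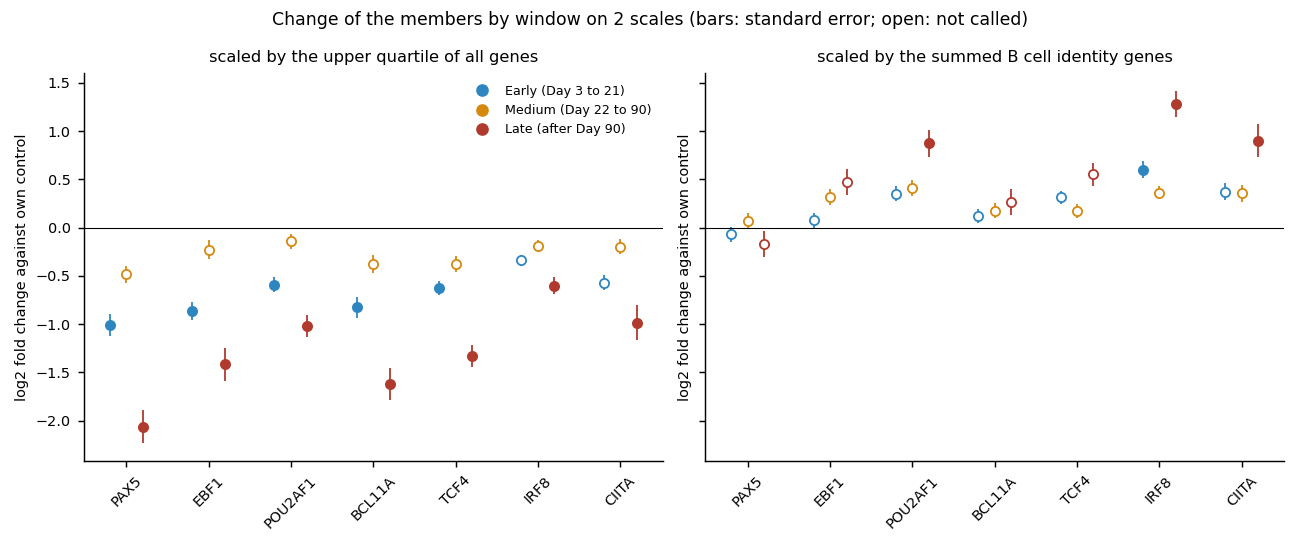
Log2 fold change of each member against the own control in the early, medium and late windows, with standard errors, scaled by all genes (left) and by the summed B cell identity genes (right), where open points are not called. PAX5 goes from -1.01 early and -2.06 late on the left to -0.07 and -0.17 on the right, while IRF8 goes from -0.34 and -0.60 to 0.60 and 1.28.

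The members did not fall equally within an animal. In the early window PAX5 fell further than IRF8 in 24 of 24 animals and further than EBF1 in 16 of 24. In the late window PAX5 fell further than IRF8 in 14, further than CIITA in 14 and further than EBF1 in 14 of 14 animals. Several neighbours in the order were not separated. BCL11A fell further than EBF1 in 9 of 14 animals, EBF1 further than TCF4 in 7 of 14 and POU2AF1 further than CIITA in 6 of 14.

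The targets of PAX5 and EBF1 fell with them. Of 10 such genes 9 were tested, and 6 were called lower in the early (1.75% of all genes), 5 in the medium (1.27%) and 8 in the late window (18.5%). Their median log2 changes were -0.92, -0.59 and -1.84, against -0.02, -0.02 and -0.13 over all genes. In the early window CD79A, a signalling chain of the antigen receptor, had -1.11 (SE 0.10) and the kinase BLK -0.98 (SE 0.08). Late, CD79B had -2.52 (SE 0.17) and the inhibitory receptor CD72 -2.14 (SE 0.17). The 10 B cell identity genes, which share 5 genes with this list, gave 9, 6 and 10 genes lower, with medians of -1.01, -0.59 and -1.89. From Day 90 to Day 120, within library series, 9 of 9 target genes and 9 of 10 identity genes were called lower, against 7.72% of all genes.

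Among CIITA's targets most of the window calls were late. Of the 9 MHC class II and invariant chain genes tested, 2 were lower early (1.75% of all genes were), none in the medium window (1.27%) and 7 late (18.5%), with median log2 changes of -0.21, -0.29 and -0.92. The early pair was MAMU-DOA (-0.74, SE 0.09) and MAMU-DOB (-0.87, SE 0.10), the chains of the DO molecule, a modulator of peptide loading that is made mainly by B cells. MAMU-DRA, a chain of the DR molecule that monocytes also carry, had -0.05 early and -0.56 late, under the fold limit, and the invariant chain CD74 had -0.13 and -0.74. From Day 3 to Day 9, 4 of the 9 genes were called lower, with a median of -0.49, while 797 of the 13751 genes tested were lower. All 9 genes were called lower from Day 90 to Day 120 (7.72% of all genes). The enhanceosome is the DNA-bound complex that recruits CIITA. Of its 7 genes none was called early or in the medium window by edgeR, with median changes of -0.14 and -0.06, and RFX5 (-0.60, SE 0.11) was the only one called late, a smaller share than the 18.5% of all genes called lower.

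Other transcription factors of the B lineage were also tested. Of 20, 2 were lower in the early window, AFF3 (-0.84, SE 0.07) and BHLHE41 (-0.80, SE 0.07). Over all genes 1.75% were lower in this window. In the late window 12 were lower and 2 higher, with a median log2 change of -0.64, where 18.5% of all genes were lower and 14.0% higher, so the 2 higher genes are no more than the share of all genes. AFF3 (-1.84, SE 0.18) and the E protein inhibitor ID3 (-1.53, SE 0.23) fell furthest. BCL6, the germinal centre repressor that neutrophils also express, was higher at 1.61 (SE 0.26), and so was SPI1 (PU.1), a factor of both myeloid and B cells, at 1.38. The octamer factors that POU2AF1 binds had -0.35 (POU2F2) and -0.21 (POU2F1) early, and POU2F2 was lower late at -0.62 while POU2F1 had 0.06. T cells express some of this list, for instance LEF1 (-1.21 late) and ETS1 (-0.75 late).

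Markers of other cells moved in the same samples. In the early window 8 of 8 erythroid genes were called higher (5.79% of all genes were), with a median log2 change of 1.76, and their summed level went from a median of 6193 CPM (1570 to 11239) in the controls to 17410 (3411 to 81808) from Day 3 to Day 21. In the late window 8 of 8 neutrophil genes were higher (14.0% of all genes) with a median of 1.27, their summed level going from 3027 CPM (826 to 8396) to 6391 (1504.7 to 17996), and 6 of 8 T cell genes were lower (18.5% of all genes) with a median of -0.89. From Day 90 to Day 120 the 8 neutrophil genes were again all higher (7.79% of all genes), with a median of 1.46, and 6 of 8 T cell genes lower (7.72% of all genes). The part of these shifts in the members' changes was not tested, and the scale of the B cell genes, given above, does not use them.

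Several members are also made outside B cells. Of 8 markers of plasmacytoid dendritic cells, the non-B cells that TCF4 directs, 4 had enough counts to be tested, and PTCRA was called higher early (0.71, SE 0.13) and none lower, with LILRA4, a receptor of those cells, at 0.08. Late, SMPD3 was higher (1.30, SE 0.37) and the interleukin 3 receptor chain IL3RA lower (-1.22, SE 0.31). Their summed level was 17.0 to 52.7 CPM in the controls (median 32.1), 10.9 to 93.6 from Day 3 to 21 (median 37.5) and 7.02 to 206.5 after Day 90 (median 44.7). CLEC4C, the receptor that defines these cells, was at 0 in 25 libraries and had a median of 8 counts, and LAMP5 was at 0 in 299. Of 6 markers of conventional dendritic cells, CD1C fell early (-0.61, SE 0.08) and late (-1.23, SE 0.18), FCER1A fell late (-1.69, SE 0.42), and the transcription factor BATF3 was higher early (0.67, SE 0.11) and late (0.64, SE 0.21). The median change of the 6 was 0.09 early, and CD1C alone was called lower then. CD1C had a median of 2127 counts, with ZBTB46 next at 55, and which cells its RNA came from was not tested. Of 7 monocyte genes none was lower in a window, and 2, 2 and 4 were higher in the early (5.79% of all genes), medium (4.48%) and late (14.0%) windows. Their summed level went from a median of 1808 CPM (842 to 4596) to 3352 (1684 to 5819) after Day 90. From Day 3 to Day 9, however, 5 of the 7 monocyte genes were called lower, with a median of -0.94. So were 3 of the 4 tested plasmacytoid dendritic cell genes, with a median of -0.84, and 0 of the 6 conventional ones. In that step 797 of the 13751 genes tested were lower. Plasma cell genes, which B cells give up PAX5 to express, had a median change of -0.03 early, with JCHAIN higher at 0.71 (SE 0.17) and none of 8 lower, and late 3 of 8 were lower (18.5% of all genes). The platelet list gave 4 of 5 higher early (5.79% of all genes) and 5 of 5 late (14.0%). The cytotoxic list gave 1 of 8 lower early (1.75% of all genes) and 1 of 8 late, under the 18.5% of all genes.

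Over all samples the genes most like the members, by Pearson's r of log2 CPM across all tested genes, are given here by member. For PAX5 these were the B cell receptor inhibitor CD22 (0.96), VAV2 (0.95) and FCRL1 (0.95), and for BCL11A they were PAX5 itself (0.95), the follicular homing receptor CXCR5 (0.93) and VAV2 (0.93). EBF1 had RAB30 (0.94), VAV2 (0.92) and BANK1 (0.91), POU2AF1 had VAV2 (0.898), GRAMD4 (0.897) and CD79A (0.88), and TCF4 had XKRX (0.93), MS4A1 (0.93), which encodes CD20, and RAB30 (0.92). CIITA was closest to SOGA1 (0.897), DEPP1 (0.89) and SCAMP4 (0.87). IRF8 had no gene as close, with CBFA2T3 (0.71), HVCN1 (0.698) and GGA2 (0.697). These samples repeat the same 28 animals and share library, depth and cell composition, so the values describe likeness only.

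The joint row LOC719262 (chr19:50291028-50336314, plus strand) holds 4 transcripts. The longest has 31 exons and the other 3 lie in the last part, from base 50326797 on, so that 76.03% of the exon bases lie before any of these short models. In a newer macaque assembly, T2T-MMU8v2.0, POLD1 and SPIB stand there as separate neighbouring genes, and POLD1 also has no row in the count table. How many of its counts come from SPIB cannot be told apart in these values. The row went from a control median of 136.7 CPM (68.5 to 267) to 94.1 at Day 3 (69.5 to 148), with a log2 fold change of -0.41 (SE 0.08), and was called lower at Day 6 (-0.63, SE 0.11) and Day 9 (-0.65, SE 0.10). It was lower in the late window with -1.09 (SE 0.15, adjusted p = 2.18e-05), in 13 of 14 animals. Unlike EBF1, from Day 3 to Day 9 it had -0.24 (SE 0.07) and was lower in 20 of 24 animals.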

How the data were processed

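RNA from whole blood was depleted of ribosomal RNA, made into stranded total RNA libraries and sequenced as paired ends. Per the labels and the study's methods, the authors trimmed reads with cutadapt 2.10, aligned them with STAR 2.7.6a to the Mmul_10 assembly with RefSeq genes, and counted read pairs per gene with Subread 2.0.1, whose strand setting is not given in the sources used here. The authors deposited raw counts per gene and, for 16730 of the genes, log2 values after upper quartile scaling, which served only an alternative.

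Tests covered genes that reached 3 counts in 80% or more of the samples and used edgeR 4.0.16 (R 4.3.3), with the quasi-likelihood test after upper quartile scaling with the animal as a block, and p-values were adjusted by the Benjamini-Hochberg method over all 13751 genes. A call needed an adjusted p no higher than 0.05 and a change of 1.5-fold or more. Pairing is by animal, since each irradiated sample was set against the control sample of the same animal, and animals without a control enter only the steps between later days. Windows added up the counts of an animal, unscheduled draws included. Doses and sexes were compared by interaction terms. Changes of single animals used log2 CPM with a prior count of 2, where the CPM are computed from the counts by the scaled library size. Correlations over control animals had permutation tests with 100000 resamples. The p-values of the day and window tests measure the spread between animals, and counting error is included in them.

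Alternatives were TMM scaling, DESeq2 1.42.0, no filter, no block, limma 3.58.1 on the deposited log2 values, the same library series, only the 6 animals followed to Day 270, and each animal left out. On simulated data with 200 changed genes among 13751, edgeR recovered 200 with 24 pairs of samples (3 false calls) and 196 with 6 pairs (10 false calls), and 198 in the interaction test (10 false calls). The planted changes were 3-fold, in genes with an expected count of at least 10, and all genes had the same dispersion. These runs therefore do not measure the power for changes near 1.5-fold in the real samples. Tables and plots were made with pandas 2.3.3, NumPy 2.4.6, SciPy 1.17.1 and Matplotlib 3.10.9.

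The members and gene lists were chosen with earlier results of these data known. Named genes are the members, the 3 genes most correlated with each, and, from each list, up to 3 called genes with the largest early or late changes. Further genes named to describe a list, such as MAMU-DRA, CD74, LEF1, POU2F1 and POU2F2, were named after their values were seen. Survival was not analysed here. One gene of the lists and 1 sequence are not reported here.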

Additional observations from a re-analysis of the deposited data

Results flagged for a closer look

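Among groups of 4 to 10 samples of 1 dose on 1 day, 48 pairs of a group and a gene were looked at and 4 held a sample far from the others, where chance flags about 1 in 20. On Day 150 the LD animal B1003 had 126.5 CPM of PAX5, with the next of 8 samples at 43.01, and 62.8 CPM of EBF1, with the next at 30.6. The same animal had 318 CPM of CIITA on Day 210, with the next of 5 samples at 170.0, and it was also the animal with the highest PAX5 and EBF1 levels on Day 270. The fourth was IRF8 in the LD animal B1502 on Day 150, at 69.6 CPM with the next at 44.7. That library is 1 of the 3 that stood apart from the rest, and it held 7.24 CPM of PAX5 and 2.01 CPM of EBF1.

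The change from the own control to the counts summed over Day 30, 40 and 60 differed between the doses by the interaction test, with log2 differences (HD minus LD) of -0.67 for EBF1, -0.55 for TCF4 and -0.48 for POU2AF1 over 24 animals, the last 2 with folds under 1.5. As given above, Day 60 carried this difference, and 9 of the 12 HD animals had a sample on that day.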

How the results depend on the processing

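Of 170 counts of called members recomputed under the alternatives, 152 stayed within 1.5 times the reported count, and where a count did not, the cause was not tested unless fewer animals entered the fit. With only the 6 animals followed to Day 270, 0 members were called by edgeR at Day 6, Day 21 and Day 90. In samples of the same library series, with 4 animals, 1 member was called lower at Day 40 (341 of 13751 genes were) and 2 in the medium window (460 genes). Without the replicate block, which ignores the pairing by animal, 0 members were called at Day 90 and from Day 120 to Day 210. For the doses this alternative used no control samples and compared the summed irradiated levels of HD and LD animals. From Day 30 to Day 60 it called 0 members (336 genes in all). limma called 1 member at Day 90, with 577 of 16730 genes lower. DESeq2 called 7 at Day 270 (978 of 13751 genes lower), 2 from Day 30 to Day 90 (500 genes) and 2 from Day 120 to Day 210 (1401 genes). With no filter 5 were called at Day 270 (274 of 18763 genes lower) and 2 from Day 120 to Day 210 (1312 of 18237). Leaving out each animal gave 0 to 6 members at Day 270, with 6 without B1003 (651 of 13751 genes lower). Chosen after the data were seen, the animals with a series A control gave 2 members for the dose from Day 30 to Day 60, and Day 30 and 40 alone gave 0. Without CD79A and CD79B, 0 members were called early relative to the B cell genes.

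Of 1480 values of single genes recomputed, 30 changed sign, none of them a called value, 43 fell short of the limits and 35 newly passed them. With the 6 animals, at Day 30 BCL11A had 0.012, IRF8 0.045 and LOC719262 0.13, at Day 40 POU2AF1 had 0.062 and TCF4 0.081, and at Day 60 BCL11A had 0.19, CIITA 0.0060, EBF1 0.41, PAX5 0.060, POU2AF1 0.30 and TCF4 0.071. Within library series IRF8 had 0.0020 at Day 30 and 0.13 at Day 40, POU2AF1 -0.43 at Day 30, and BCL11A -0.20 from Day 120 to Day 210. Without the replicate block and without the controls, the dose differences in level from Day 3 to 21 were 0.44 (BCL11A), 0.45 (CIITA), 0.13 (IRF8), 0.18 (LOC719262), 0.60 (PAX5), 0.41 (POU2AF1) and 0.31 (TCF4), and from Day 30 to 60 they were 0.32 (BCL11A), 0.56 (CIITA), 0.082 (IRF8), 0.28 (LOC719262), 0.32 (PAX5) and 0.34 (POU2AF1). These are differences in level and not in change, so their sign cannot be set against that of the main fit. With series A controls PAX5 had 0.025 for the dose from Day 3 to 21, and without CD79A and CD79B it had -0.068 in the medium window relative to the B cell genes. The share of higher genes among all called ones moved by over 10 points with TMM scaling or DESeq2 at Day 6 (52.4% to 62.7%), Day 40 (58.8% to 72.2%), Day 60 (54.6% to 67.6%), Day 120 (39.9% to 55.5%), Day 180 (47.2% to 58.5%) and Day 210 (43.1% to 57.9%). DESeq2 moved the median change of all genes by 0.135 at Day 120 and 0.140 at Day 270. Another prior count moved a median change of a member by at most 0.041. At Day 180 and later, the 6 animals limit every comparison, and counts as low as 3 for BCL11A limit single samples.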

Other observations

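The 8 unscheduled draws entered no comparison by day, and those of animals with a control entered the windows. The HD draw of Day 129 came from an animal without a control and entered no window. PAX5 held 15.2 to 108.4 CPM in the 8 draws, against 13.7 to 150.4 CPM at the previous draw of the same animals, and was lower in 5 of 8. EBF1 held 3.71 to 54.8 CPM against 8.50 to 67.3 and was lower in 6 of 8. IRF8 held 26.1 to 49.3 CPM against 28.0 to 52.5 and was lower in 5 of 8. POU2AF1 held 9.79 to 27.7 CPM against 5.04 to 38.3 and was lower in 4 of 8. The draws came from different days and from animals of both doses.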
